A study of Mus musculus with 41 samples.

Results

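The probe pairs described here are miRNA stems that the array carried under the same name with the ending -a and again with the ending -p. The pairs were chosen by measured values: a stem was kept when both of its probes held a value on at least 20 of the 41 arrays. Of the 637 probe rows, 397 ended in -a and 236 in -p. The limit left 77 pairs, 35.8% of the stems that occurred with both endings. It was missed by 64 stems on the -p side, by 36 on the -a side and by 38 on both. The members are therefore stems whose 2 probes were both bright enough to be read in spleen. Of the 77 pairs, 27 were complete on all 41 arrays. The pair just inside the limit was miR-679, whose -a probe was measured on 41 arrays and whose -p probe on 20, with a mean difference of -3.33 between the probes on the log2 scale. Just outside it lay miR-383 (41 and 19 arrays, -1.84), miR-196a-1 (36 and 19 arrays, -1.02) and miR-423 (19 and 25 arrays, 0.07). What the 2 endings stand for is not stated by the labels or the files, nor is any probe's sequence used here.

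The arrays measured total RNA from spleens of C57BL mice, copied into biotin-labelled first strand cDNA from 5 ug of RNA. Mice of 4 genotypes received C. parvum or, as controls, saline. The wild type (p53+/+NOS2+/+) was represented by 5 control and 5 treated arrays, the NOS2 knockout (p53+/+NOS2-/-) by 5 and 5, the p53 knockout (p53-/-NOS2+/+) by 4 and 5, and the double knockout (p53-/-NOS2-/-) by 6 and 6. The labels give no age, dose or time after treatment. The submitters' design note counts 4 or 5 animals to a group and leaves the double knockout unmentioned, so whether each of its 6 arrays is a separate mouse was not stated. The p-values therefore measure the spread between these arrays, which may be technical in part.

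A miRNA gene is transcribed as a hairpin whose 5′ and 3′ arms can each be cut out as a mature strand by Drosha and Dicer. One strand is usually loaded into an Argonaute protein and the other is degraded, so the arms of one hairpin can differ greatly in abundance although they come from the same transcript. A loaded strand recognises target mRNAs mainly through its seed, the stretch near its 5′ end. Some hairpins depart from this route: miR-451 is cut by Ago2 without Dicer, and miR-320 is made without Drosha.

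RefSeq (GRCm38.p6) held a gene for 68 of the 77 stems, a mature sequence for 61 and both mature strands for 51. The stems miR-123, miR-321, miR-669a, miR-680, miR-685, miR-696, miR-699, miR-714 and miR-805 were not matched, and the gene matched for miR-801 was Rnu11, a small nuclear RNA. The following mature strands belong to the hairpins on which the results turn. Which strand the -a or the -p probe reads is not given, so each hairpin is shown with both. Capitals mark the seed, bases 2 to 8. First are the strands of the miR-29 family, which share one seed on their 3p arm and have 3 different seeds on their 5p arm.
miR-29a-3p, chr6:31062673-31062694, minus strand: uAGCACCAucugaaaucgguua
miR-29b-3p, from Mir29b-2, chr1:195037091-195037113, plus strand: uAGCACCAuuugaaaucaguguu
miR-29c-3p, chr1:195037600-195037621, plus strand: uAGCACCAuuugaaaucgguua
miR-29a-5p, chr6:31062711-31062732, minus strand: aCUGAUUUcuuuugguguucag
miR-29b-2-5p, chr1:195037050-195037074, plus strand: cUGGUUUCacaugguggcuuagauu
miR-29c-5p, chr1:195037562-195037583, plus strand: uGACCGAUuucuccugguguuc

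The next strands come from other hairpins whose 2 probes moved apart under C. parvum. The miR-138 and miR-7 hairpins each have a sister gene elsewhere in the genome with one identical strand and one that differs.
miR-221-3p, chrX:19146307-19146329, minus strand: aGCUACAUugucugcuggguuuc
miR-221-5p, chrX:19146344-19146369, minus strand: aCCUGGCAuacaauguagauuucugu
miR-500-3p, chrX:7237695-7237716, minus strand: aAUGCACCugggcaaggguuca
miR-500-5p, chrX:7237730-7237754, minus strand: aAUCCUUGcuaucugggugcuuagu
miR-138-5p, from Mir138-2, chr8:94324312-94324334, plus strand: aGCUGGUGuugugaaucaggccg
miR-138-2-3p, chr8:94324359-94324379, plus strand: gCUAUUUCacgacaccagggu
miR-138-1-3p, chr9:122682936-122682957, plus strand: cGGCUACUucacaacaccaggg
miR-7a-5p, from Mir7-2, chr7:78888295-78888317, plus strand: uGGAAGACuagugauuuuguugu
miR-7a-2-3p, chr7:78888335-78888356, plus strand: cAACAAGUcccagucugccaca
miR-7a-1-3p, from Mir7-1, chr13:58392800-58392821, minus strand: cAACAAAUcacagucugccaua

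The last strands stand for the extremes of the level difference and for pairs whose probes moved together.
miR-26b-5p, chr1:74394324-74394344, plus strand: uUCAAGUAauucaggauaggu
miR-26b-3p, chr1:74394360-74394381, plus strand: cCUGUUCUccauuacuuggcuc
miR-543-5p, chr12:109717269-109717289, plus strand: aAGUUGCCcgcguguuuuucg
miR-543-3p, chr12:109717304-109717325, plus strand: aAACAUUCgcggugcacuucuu
miR-483-5p, chr7:142654968-142654989, minus strand: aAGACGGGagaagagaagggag
miR-483-3p, chr7:142654932-142654952, minus strand: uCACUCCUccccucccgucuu
miR-451a, chr11:78073186-78073207, plus strand: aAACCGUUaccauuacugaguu

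Each array held 310 to 464 values, and 40.4% of all cells of the table were empty. The values behave as log2 intensities, and the log base is inferred from them. Lymphoid, myeloid and erythroid miRNAs were among the brightest probes, with the -a probe of miR-150 at percentile 98.6 of the probes' medians, miR-223 at 98.3, miR-486 at 97.0 and both miR-451 and miR-155 at 96.4. The probes of the blood cell miRNA miR-142 lay lower, at 91.8 for miR-142-5p-a and 72.4 for miR-142-3p-a. The pancreatic miR-217 and the hepatic miR-122a were measured on 3 and 12 arrays, while miR-375, also of the pancreatic list, was measured on all 41. Bright probes were not only those of blood cells. The -a probe of miR-290, of the embryonic stem cell cluster, had a mean normalized level of 15.76, against a median of 14.51 for that of miR-150. The arrays fell into 2 sets by the -a probe of miR-370, whose values had an empty interval between them. The set of 18 arrays held all 10 wild type arrays, 2 treated NOS2 knockout arrays, 5 double knockout controls and 1 treated double knockout array, and the other 23 arrays formed the second set. No label says what these sets are. Wild type and p53 knockout contrasts each lie within 1 set, whereas in the double knockout the sets nearly coincide with the treatment. The NOS2 knockout contrast is confounded with the sets in part, because all of its controls lay in the second set.

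Levels are given below as normalized log2 intensities, and the gap of a pair is its -p level minus its -a level on the same array. The gap compares probes of different sequence, so it is a description without a test. The -a probe was the brighter one in 46 pairs and the -p probe in 31, with a median gap of -0.63 over the 77 pairs. The gap ran from -9.00 to 5.34, and its within-group SD had a median of 0.481. In 32 pairs the -a probe was brighter on every array that measured both, in 11 pairs the -p probe was, and in 34 pairs the order changed between arrays. The -a probe exceeded the other by more than 3 log2 units in 18 pairs and the -p probe did so in 4. In 24 pairs the probes lay within 1 unit of each other. The median level was 9.52 for the -a probes and 8.40 for the -p probes.

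The widest gap belonged to miR-26b, a miRNA found in most tissues. Its -a probe had a mean level of 15.56 and its -p probe one of 6.57, and the gap stayed between -10.42 and -7.65 on the 35 arrays with both probes. It was followed by miR-342, a miRNA of leukocytes, with means of 15.45 and 7.13 and a gap of -8.33. The gap of miR-342 lay between -9.75 and -7.85 on 33 arrays, so every array with both probes showed one dominant probe in both pairs. miR-290, of the embryonic stem cell cluster, had a gap of -6.27, with means of 15.76 and 9.50. let-7a-2, one of several genes for let-7a, had a gap of -5.53, with means of 12.49 and 6.95. miR-451, an erythroid miRNA, had a gap of -5.52, with means of 12.87 and 7.44. For miR-451 RefSeq lists a single mature strand, while the array carried 2 probes.

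In the opposite direction miR-543, of the imprinted Dlk1-Dio3 locus, had an -a level of 9.64 and a -p level of 14.98. Its gap of 5.34 ranged from 4.06 to 6.51 over all 41 arrays. The gap was 3.80 for miR-760 (levels of 7.0 and 10.83), 3.40 for miR-685 (6.75 and 10.24), 3.35 for miR-425 (7.26 and 10.62) and 2.48 for miR-672 (7.91 and 10.39). The brightest pair members thus occurred under both endings. At the other end, with pairs chosen after their values were seen, miR-744 had a gap of -0.01, miR-669c of 0.09, miR-339 of 0.12 and miR-138-2 of 0.16. The GC share of the hairpin had a median of 49.2% over 36 stems with the brighter -a probe and of 54.1% over 21 stems with the brighter -p probe, which is given as a description.

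The 2 probes of a stem varied largely on their own. Over the arrays' deviations from their group means, Pearson's r between the probes of a pair had a median of 0.161 over the 77 pairs, and it was below 0 in 26 of them. The same measure between an -a probe and the -p probes of other stems had a median of 0.000157 over 5851 combinations. These points share arrays and normalization. In 7 pairs r exceeded 0.5. Chosen for that after their values were seen, they were miR-321 (0.876), miR-15b (0.76), miR-801 (0.70), miR-714 (0.68), miR-703 (0.65), miR-93 (0.56) and miR-696 (0.53). The lowest r, -0.583, belonged to miR-221.

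The share of member probes called after C. parvum lay within 2 percentage points of that of all probes in 3 genotypes and was lower in the double knockout. A change is the treated minus the control mean on the log2 scale, and a probe was called at an adjusted p of at most 0.05 in limma, with Benjamini-Hochberg adjustment over all probes tested. In wild type spleen 47 of 139 tested member probes were called (33.8%), 26 higher and 21 lower, against a background of 33.9% of all 319 probes tested, 16.6% higher and 17.2% lower. Of the 72 -a probes among them 13 rose and 14 fell, and of the 67 -p probes 13 rose and 7 fell. NOS2 knockout spleen had 39 calls over 72 -a and 73 -p probes (26.9%), 21 higher and 18 lower, against 25.7% of all probes, 12.1% higher and 13.6% lower. p53 knockout spleen had 37 calls over 71 -a and 67 -p probes (26.8%), 23 higher and 14 lower, against 28.7% of all probes, 13.9% higher and 14.8% lower. Double knockout spleen had 14 calls over 75 -a and 75 -p probes (9.33%), 9 higher and 5 lower, against 14.1% of all probes, 7.96% higher and 6.1% lower. The mean of the 4 genotypes' changes had 73 calls over 70 -a and 59 -p probes (56.6%), 43 higher and 30 lower, against 57.4% of all probes, 31.3% higher and 26.1% lower. In bulk spleen, fewer cells of a type and less of a miRNA per cell cannot be told apart.

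The split between higher and lower depended on the scaling. On the values as deposited the wild type split was 20 higher and 29 lower, and with each array centred on its median it was 39 and 19. These splits were 13 and 30 as deposited and 30 and 16 with median centring for the NOS2 knockout. They were 18 and 26, then 37 and 12 for the p53 knockout. They were 8 and 2, then 14 and 2 for the double knockout, and for the mean change 34 and 43, then 56 and 24. The median change of all probes in wild type moved from -0.06 as deposited through 0.06 to 0.23 under these scalings, so the share of probes that rose is relative to the scaling. The gap takes both probes from the same array and does not carry such a shift where the scaling subtracts 1 value from every probe of an array.

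In each genotype few pairs had both probes called, and single probes were also called in a minority of tests, as given above. How many joint calls those shares alone would give was not tested. The counts below are therefore a description and do not show that the 2 probes respond separately. In wild type both probes could be tested in 63 pairs. Both were called in the same direction in 4 pairs and in opposite directions in 3, the -a probe alone in 17, the -p probe alone in 11 and neither in 28. Of the 68 pairs tested in the NOS2 knockout, 5 were called in the same direction, 2 in opposite directions, 13 on the -a side alone, 9 on the -p side alone and 39 on neither. The corresponding counts over 63 pairs of the p53 knockout were 3, 1, 12, 12 and 35, and in the double knockout over 73 pairs they were 1, 0, 7, 5 and 60. For the mean change, which 54 pairs allowed, 8 pairs moved in the same direction and 12 in opposite directions, with 14 called on the -a side alone, 9 on the -p side alone and 11 on neither.

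The sign of the 2 changes, whether called or not, was the same in 28 of 63 pairs in wild type, 34 of 68 in the NOS2 knockout, 34 of 63 in the p53 knockout and 44 of 73 in the double knockout. Across pairs, the change of the -a probe and that of the -p probe had an r of 0.088 in wild type, 0.103 in the NOS2 knockout, 0.108 in the p53 knockout and 0.157 in the double knockout. These correlations are across stems that share arrays and are a description. Calls fell more often on the brighter probe of a pair, in 32 of 74 against 15 of 65 dimmer probes in wild type and in 28 of 75 against 9 of 63 in the p53 knockout, a difference that was not tested. The NOS2 knockout counts were 24 of 75 and 15 of 70, and in the double knockout 11 of 76 and 3 of 74.

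The change of the gap tests directly whether the 2 probes moved by different amounts. In wild type it was called in 23 of 62 stems tested (37.1%), 15 higher (24.2%) and 8 lower (12.9%), and all of these stems were members, so members and background are the same. For the NOS2 knockout 24 of 68 members were called, 12 in each direction, against 34.3% of the 70 stems tested (17.1% each way). For the p53 knockout 21 of 63 were called, 11 higher and 10 lower, against 32.8% of the 64 stems tested (17.2% higher and 15.6% lower). For the double knockout 9 of 73 were called, 8 higher and 1 lower, against 11.4% of the 79 stems tested (10.1% higher and 1.27% lower). The count was 15 in the NOS2 knockout without treated array 3, control 3 or control 4, and 12 in the p53 knockout without treated array 5 or control 5. For the mean change 34 of 54 were called, 18 higher (33.3%) and 16 lower (29.6%), a background of 63.0% over the same stems. The median absolute change of the gap was 0.75 in wild type, 0.60 in the NOS2 knockout, 0.56 in the p53 knockout and 0.31 in the double knockout. In 5, 6, 6 and 5 of the called pairs, in that order, neither probe had been called by itself.

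The miR-29 family, whose 3p strands repress collagen and other matrix genes, showed the pattern in all 3 of its member pairs. Their -a probes fell and their -p probes rose in the mean over genotypes, so the gap rose by 1.23 ± 0.14 (SE, adjusted p = 3.1e-09 in limma) for miR-29a, by 1.04 ± 0.12 for miR-29b-2 and by 1.24 ± 0.14 for miR-29c. miR-29c is given in full. In wild type controls its -a levels were 10.39, 11.55, 10.19, 10.84 and 10.96, and after C. parvum they were 9.73, 9.54, 9.98, 10.17 and 10.03. Its -p levels were 8.90, 9.17, 8.93, 8.85 and 8.90 in controls and 9.44, 9.57, 9.75, 10.03 and 9.64 after treatment. Neither probe's treated and control values overlapped, with the -a probe lower and the -p probe higher on every treated array. The -a change was -0.90 ± 0.20 (adjusted p = 0.000497), the -p change 0.73 ± 0.19 (adjusted p = 0.00291) and the change of the gap 1.63 ± 0.29 (adjusted p = 3.4e-05).

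The gap of miR-29c rose by 1.53 ± 0.29 in the NOS2 knockout (adjusted p = 0.000357) and by 1.5 ± 0.30 in the p53 knockout (adjusted p = 0.000572). The p53 knockout gaps were -2.84, -2.60, -3.20 and -2.70 in controls and -0.87, -2.06, -2.01, -1.13 and -0.62 after treatment, without overlap. The fall of the -a probe in these knockouts, -0.98 ± 0.20 and -0.84 ± 0.21, kept its call when any 1 array was left out. The rise of the -p probe did not. It was 0.55 in the NOS2 knockout and lost its call without treated array 1 (0.47), 2 (0.41) or 4 (0.55) or without control 3 (0.43). That call was also lost with the array set as a block (0.45), within set 2 (0.27) and on the compared arrays alone (0.55). In the p53 knockout the rise was 0.66, and its call was lost without treated array 1 (0.57) or control 4 (0.49) and on the compared arrays alone (0.66). Double knockout changes were -0.22 for the -a probe, 0.09 for the -p probe and 0.31 ± 0.26 for the gap (adjusted p = 0.511).

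For miR-29a the gap in wild type was -0.40, -1.57, -0.52, -1.06 and -1.62 in controls and 0.77, 0.69, 0.93, 0.59 and -0.05 after treatment. The brighter probe was thus the -a probe on every control array and the -p probe on 4 of the 5 treated arrays. The gap rose by 1.62 ± 0.28 (adjusted p = 3.4e-05). The -a probe fell by 1.08 ± 0.17 on the log2 scale (adjusted p = 1.29e-05), while the rise of the -p probe, 0.55 ± 0.21 (adjusted p = 0.0392), lost its call without any one of treated arrays 1 to 4, control 4 or control 5, with values from 0.43 to 0.56. The gap also rose by 1.15 ± 0.28 in the NOS2 knockout (adjusted p = 0.00247), by 1.05 ± 0.30 in the p53 knockout (adjusted p = 0.00894) and by 1.08 ± 0.26 in the double knockout (adjusted p = 0.00716). With the array set as a block the double knockout value was 0.89 and no longer called.

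The wild type gap of miR-29b-2 was -3.14, -3.43, -3.22, -3.74 and -3.82 in controls and -2.03, -2.18, -2.04, -2.27 and -2.68 after treatment. These ranges did not overlap, and the -a probe stayed the brighter one throughout. The gap rose by 1.23 ± 0.24 in wild type (adjusted p = 0.000132), 1.15 ± 0.24 in the NOS2 knockout (adjusted p = 0.000819) and 1.04 ± 0.25 in the p53 knockout (adjusted p = 0.00206). Its double knockout change of 0.73 ± 0.22 (adjusted p = 0.0221) was lost with the set as a block (0.72), and it was lost without treated array 1 (0.63), 2 (0.67) or 3 (0.68) or control 6 (0.64). Within a genotype only the -a probe was called, for instance at -0.98 ± 0.15 in wild type. The deviations of the miR-29 -a probes, whatever strand they read, ran together across the 41 arrays, with r of 0.699, 0.763 and 0.532 between the 3 stems. Those of their -p probes had r of -0.0015, 0.052 and 0.373. On the -a side the 3 pairs are therefore not independent observations.

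miR-221, which represses the cell cycle inhibitor Cdkn1b and the receptor Kit, moved the other way. In the mean over genotypes its -a probe rose by 0.60 ± 0.10 (adjusted p = 3.73e-06) and its -p probe fell by 0.57 ± 0.16 on the log2 scale (adjusted p = 0.00204), a -p call that was lost when empty cells were given a low value (-0.35). In NOS2 knockout controls the -p levels were 10.99, 10.03, 10.41, 10.59 and 11.08, and after treatment they were 9.68, 9.36, 9.84, 9.68 and 7.71. The -a levels there were 11.22, 11.08, 11.06, 10.94 and 10.75 in controls and 11.22, 11.48, 11.43, 11.36 and 12.98 after treatment. The -p values did not overlap, the -a values met at 11.22, and treated array 5 was the extreme for both probes. The gap fell by 2.05 ± 0.44 (adjusted p = 0.000895), and without treated array 5 it fell by 1.34 (adjusted p = 0.00119) and the -a change was 0.36. The change of the gap was not called in wild type (-0.99), the p53 knockout (-1.15) or the double knockout (-0.59). In wild type and the p53 knockout the gap was still lower on every treated array than on any of the 4 controls with both probes. In the double knockout the groups overlapped. The fall of the gap is thus not particular to the NOS2 knockout.

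miR-500, of the X-linked cluster within Clcn5, showed the gap change in each genotype although its single probes were rarely called. In wild type the gap was -0.01, -1.38, -0.73, -0.69 and -0.23 in controls and 0.48, 1.25, 0.91, 1.35 and 1.21 after treatment. Every control array was below 0 and every treated array above it. The gap rose by 1.65 ± 0.43 (adjusted p = 0.00297), with an -a change of -0.99 ± 0.42 and a -p change of 0.67 ± 0.28 that were both not called. The p53 knockout control gaps were -0.01, -0.20, -1.71 and -0.98, and the 3 treated arrays that measured both probes had 1.27, 1.30 and 1.90. The rise there was 2.21 ± 0.52 (adjusted p = 0.00181), while the rise of 1.38 ± 0.45 in the NOS2 knockout (adjusted p = 0.0215) was lost without treated array 3 (1.13) or 4 (1.19) or control 5 (1.17). The double knockout rise of 1.45 ± 0.39 (adjusted p = 0.0142) was lost with the set as a block (0.83) and without treated array 3 (1.18). Over the 4 genotypes the gap rose by 1.67 ± 0.23 (adjusted p = 1.24e-07).

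miR-138-2, one of the genes for a miRNA best studied in neurons, had its contrast in wild type and in the NOS2 knockout. The wild type -a levels were 10.54, 9.98, 9.52, 8.87 and 8.58 in controls and 8.13, 7.98, 7.99, 8.31 and 8.47 after treatment. The -p levels were 9.52, 9.23, 9.19, 9.15 and 9.10 in controls and 9.64, 9.77, 9.83, 10.27 and 9.70 after treatment. Both probes separated the groups in opposite directions, although the control -a values were spread widely. The gap rose by 1.93 ± 0.28 in wild type (adjusted p = 2.14e-06) and by 1.24 ± 0.28 in the NOS2 knockout (adjusted p = 0.000992). It changed by 0.45 in the p53 knockout and 0.04 in the double knockout, neither called.

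miR-7-2, one of the genes for the neuronal and endocrine miR-7, moved on its -a side. The wild type gap was -2.85, -1.74, -2.97, -2.58 and -1.92 in controls and -4.16, -4.20, -3.45, -3.68 and -3.64 after treatment, without overlap. The -a probe rose by 1.34 ± 0.23 in wild type (adjusted p = 2.97e-05), 1.27 ± 0.23 in the NOS2 knockout (adjusted p = 0.000168) and 0.89 ± 0.25 in the p53 knockout (adjusted p = 0.00792). Its -p changes were -0.08, -0.21 and -0.49, none called, and the gap fell by 1.42, 1.49 and 1.38, each called. The double knockout changes were -0.01 for the -a probe and -0.12 for the gap. In the mean over genotypes the -p change of -0.23 ± 0.09 (adjusted p = 0.033) put the pair into the opposite class, and it lost its call with median centring (-0.09) and without any one of 8 arrays (-0.21 to -0.20).

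miR-669c, of the repeated cluster in an intron of Sfmbt2, moved on its -p side. In wild type its -p levels were 11.69, 10.78, 11.25, 10.43 and 10.43 in controls and 9.90, 9.98, 9.54, 9.92 and 8.89 after treatment. Its gap was 1.34, 2.27, 1.02, 0.59 and 0.75 in controls and -0.40, 0.02, -0.42, 0.13 and -1.05 after treatment. Both measures were lower on every treated array than on any control array. The gap fell by 1.54 ± 0.33 (adjusted p = 0.000342), and by 1.54 ± 0.35 in the p53 knockout (adjusted p = 0.00134). The fall of 1.0 in the NOS2 knockout was lost without treated array 3 (-0.71) or control 4 (-0.88), and the double knockout change was -0.76 (not called).

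The gap of miR-196a-2, a miRNA of the Hox clusters, fell by 2.0 ± 0.40 in wild type (adjusted p = 0.000206) and by 1.63 ± 0.43 in the p53 knockout (adjusted p = 0.00503). The 4 wild type controls with both probes had gaps of 1.68, 1.95, 2.22 and 2.49, and the treated arrays 0.37, 0.16, -0.34, 0.75 and -0.51. The brighter probe was the -p probe on each of these controls and no longer on 2 of the treated arrays. Its changes of gap in the NOS2 knockout (-0.02) and the double knockout (-0.57) were not called. For miR-320 the mean changes were -0.46 ± 0.15 on the -a side (adjusted p = 0.00687) and 0.46 ± 0.13 on the -p side (adjusted p = 0.00376), and the gap rose by 0.92 ± 0.19 (adjusted p = 6.08e-05). In single genotypes its largest change of the gap was 1.39 ± 0.37 in the NOS2 knockout (adjusted p = 0.00498), a call lost on the compared arrays alone at the same value. The remaining opposite pairs, named because they complete the 12, were miR-125b-1 (-0.62 ± 0.14 and 0.20 ± 0.09) and miR-218-1 (0.22 ± 0.09 and -0.43 ± 0.17).

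The opposite class of the mean change did not depend on the scaling for 7 of these pairs. miR-138-2, miR-221, miR-29a, miR-29b-2, miR-29c, miR-320 and miR-500 were called in opposite directions in the mean on the quantile-normalized values, on the deposited values and with median centring. Calls behind other members of the class were lost on the -a side of miR-669c as deposited (0.22) and on the -p side of miR-196a-2 with median centring (-0.29). Some -p values of the 7 pairs were smaller as deposited though still called, at 0.49 for miR-29c and 0.39 for miR-138-2 in wild type and, in the mean, at 0.26 for miR-29a, 0.28 for miR-320 and 0.18 for miR-138-2. Within single genotypes some calls of the 7 pairs were lost as deposited. Among them were the -p calls of miR-29a in wild type (0.38), miR-29c in the NOS2 knockout (0.36) and miR-500 in the p53 knockout (0.68). The -a calls of miR-221 were lost in the NOS2 knockout (0.46) and the p53 knockout (0.37). The opposite pairs of the NOS2 knockout thus went from 2 to 0, and miR-29a left those of wild type. Other pairs entered as deposited: miR-702 joined those of wild type, and those of the p53 knockout went from 1 to 3. With median centring the opposite pairs numbered 5 in wild type, 3 in the NOS2 knockout and 4 in the p53 knockout. The class within a genotype thus moved both ways with the scaling. In the mean, 10 pairs were in the class as deposited and 9 of them were shared with the 12. With median centring 11 were and 9 were shared, and with the array set as a block 11 were and all 11 were shared.

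Pairs whose 2 probes moved together were led by miR-483, which lies in an intron of Igf2. In wild type its -a levels were 12.68, 11.13, 12.24, 11.80 and 11.80 in controls and 13.06, 13.22, 13.10, 12.93 and 12.77 after treatment. The -p levels were 10.86, 10.52, 10.82, 10.92 and 10.39 in controls and 12.17, 11.72, 11.80, 10.92 and 10.99 after treatment. The -a values did not overlap, and the -p values met at 10.92. The -a probe rose by 1.09 ± 0.29 (adjusted p = 0.00367) and the -p probe by 0.82 ± 0.21 (adjusted p = 0.00266), with a change of the gap of -0.27 ± 0.31 (adjusted p = 0.462). Both probes were also called higher in the NOS2 knockout (0.91 and 0.96) and the p53 knockout (1.15 and 0.64). Of these, the -a call in the NOS2 knockout was lost with the set as a block (0.61) and without treated array 1 (0.73) or 2 (0.85) or control 3 (0.85). The -p call in the p53 knockout was lost as deposited (0.37) and without treated array 1 (0.62), 3 (0.59) or 4 (0.63) or control 1 (0.60) or 2 (0.57).

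miR-699, an unmatched cloned candidate, fell on both probes in wild type by unequal amounts. Its -a levels were 10.89, 10.35, 10.45, 10.66 and 10.21 in controls and 7.93, 8.60, 7.57, 8.22 and 9.02 after treatment. Its -p levels were 9.84, 11.17, 9.56, 10.05 and 9.42 in controls and 8.85, 8.75, 8.87, 8.98 and 9.15 after treatment. Neither probe's groups overlapped. The -a probe fell by 2.24 ± 0.30 on the log2 scale (adjusted p = 9.59e-07) and the -p probe by 1.09 ± 0.22 (adjusted p = 0.000271), so the gap rose by 1.15 ± 0.30 (adjusted p = 0.00297). Its NOS2 knockout -a change of -0.98 ± 0.30 (adjusted p = 0.0145) was lost without treated array 3 (-0.73), and the -p change was 0.08.

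The other 6 pairs called in the same direction for the mean had smaller changes. Both probes rose for miR-339 (0.34 ± 0.12 and 0.59 ± 0.10), miR-543 (0.40 ± 0.10 and 0.56 ± 0.11) and miR-672 (0.37 ± 0.13 and 0.80 ± 0.12). The -a calls of miR-339 (0.23) and miR-672 (0.28) were lost as deposited. The gap of miR-672 was called at 0.44. That call was lost as deposited (0.34), with empty cells at a low value (0.43) and without wild type control 1 (0.39) or NOS2 knockout treated array 2 (0.40). For miR-543 the -a change was 0.21 as deposited and the -p change 0.87 with median centring, both still called. Both probes fell for miR-123 (-0.47 ± 0.08 and -0.75 ± 0.15), miR-532 (-0.49 ± 0.09 and -0.37 ± 0.10) and miR-139 (-0.75 ± 0.19 and -0.34 ± 0.12). The -p call of miR-532 was lost with median centring (-0.24). miR-532 is encoded in the same X-linked cluster as miR-500, whose probes were called in opposite directions. miR-139 and the mean values of miR-672 were added after their values were seen, to complete the 8 pairs.

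Of the erythroid list, the pairs miR-486 and miR-451 were members, and in both the -a probe was the brighter by far. The -a probe of miR-486 stood at 11.28, 12.40, 11.87, 12.40 and 12.57 in wild type controls and at 14.51, 14.21, 14.51, 14.66 and 14.35 after treatment. Its -p probe was read on 2 wild type controls (6.78 and 6.58) and on all 5 treated arrays (8.06, 7.92, 8.05, 8.43 and 8.12), so that it was not tested there. Every treated value exceeded every control value on both sides. The -a probe rose by 2.35 ± 0.39 in wild type (adjusted p = 1.78e-05), by 2.15 ± 0.39 in the NOS2 knockout (adjusted p = 0.000168) and by 2.88 ± 0.42 in the p53 knockout (adjusted p = 6.57e-06). The -p probe rose by 1.33 ± 0.32 in the p53 knockout (adjusted p = 0.00322). Its NOS2 knockout change of 0.75 ± 0.28 (adjusted p = 0.045) was lost without treated array 3 (0.57) or 4 (0.67) or control 1 (0.65) or 4 (0.60). The gap fell by 1.39 ± 0.38 and by 1.44 ± 0.44 in these knockouts, the -a probe having risen more. These gap calls were lost on the compared arrays alone in the NOS2 knockout (-1.39) and as deposited in the p53 knockout (-1.08). Without control 3 the NOS2 knockout gap fell by 0.90 (adjusted p = 0.0425).

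For miR-451 the wild type -a levels were 11.83, 10.99, 11.45, 11.97 and 11.58 in controls and 13.51, 13.44, 13.51, 13.30 and 12.68 after treatment. The -p levels were 7.86, 6.49, 6.83 and 6.23 in the 4 controls that had one and 7.90, 7.99, 8.15, 8.68 and 8.24 after treatment. Both probes were higher on every treated array. The changes were 1.72 ± 0.34 (adjusted p = 0.000149) and 1.34 ± 0.27 (adjusted p = 0.000293), with -0.45 ± 0.43 for the gap (adjusted p = 0.38). In the double knockout neither erythroid pair had a called probe, with -a changes of 0.85 for miR-486 and -0.12 for miR-451. Of the lymphoid list, miR-181c was a member, a miRNA of lymphocyte development. Its -a probe fell by 1.48 ± 0.23 in wild type (adjusted p = 6.02e-06), 1.17 ± 0.23 in the NOS2 knockout (adjusted p = 0.000264) and 1.34 ± 0.24 in the p53 knockout (adjusted p = 0.00016). Its -p probe was too often empty to be tested in wild type or the p53 knockout and changed by -0.20 (adjusted p = 0.791) in the NOS2 knockout. The part of changed cell composition in the changes of other pairs was not tested.

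Among the other lists of miRNAs, the 3 let-7 pairs had 0 of 22 tests on their probes called by limma over the 4 genotypes, with 4 at an unadjusted p under 0.05, against backgrounds of 33.9%, 25.7%, 28.7% and 14.1% of all probes in wild type, NOS2 knockout, p53 knockout and double knockout. The miR-29 list had its -a probes called lower in 3, 3, 3 and 2 of 3 pairs and its gap called higher in 3, 3, 3 and 2 of 3, in the same order. The shares of all probes called lower were 17.2%, 13.6%, 14.8% and 6.1%, and those of all gaps called higher 24.2%, 17.1%, 17.2% and 10.1%. The list was chosen with such results known. Of the embryonic stem cell cluster, the bright -a probe of miR-290 rose by 0.34 ± 0.09 in the mean (adjusted p = 0.00111), with a -p change of 0.20 ± 0.15 (adjusted p = 0.255). The -a value was 0.57 as deposited and 0.82 with median centring. On the quantile-normalized scale many control and treated arrays shared the level 15.98, the highest this probe took, which limits the change there. By name, the preset pairs that were members comprised no stem called miR-21, miR-34a, miR-126, miR-146, miR-150, miR-155 or miR-223. The hairpin of the member miR-123 was not matched, so this holds for names only.

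Among the largest changes of the gap within a genotype, that of miR-297b in the p53 knockout rested on the -p probe. Its gap was 1.77, 1.77, 1.79 and 2.34 in controls and 0.15, -0.29, 0.04, 0.29 and -0.35 after treatment. The 2 groups were separated by more than a log2 unit. The -p probe fell by 1.5 ± 0.21 on the log2 scale (adjusted p = 4.88e-06), the -a change was 0.45 ± 0.30 (adjusted p = 0.271), and the gap fell by 1.95 ± 0.33 (adjusted p = 4.52e-05). The NOS2 knockout -p probe fell by 1.23 ± 0.20 (adjusted p = 9.62e-05) and the gap by 1.30 ± 0.31 (adjusted p = 0.00183). miR-702 had a wild type gap change of -1.75 ± 0.50 (adjusted p = 0.00647), with the -a probe up by 1.10 ± 0.22 (adjusted p = 0.000167), and the gap call was lost when empty cells were given a low value (-1.29). The p53 knockout change of miR-669b, -1.97 ± 0.63 (adjusted p = 0.0165), was lost without treated array 5, where it was -1.37.

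The double knockout changes of the gap cannot be told apart from the array sets. miR-326 had the largest, 2.39 ± 0.54 (adjusted p = 0.00716), with 4 measured -p control levels of 5.28, 5.22, 5.55 and 8.56 and 5 treated levels of 8.25, 8.87, 9.08, 8.66 and 8.82. Of the controls, 3 lay far below the treated arrays and the other one among them, and the change became -0.28 once the set was a block. This block value rests on control 6, the only control of the second set. miR-293 changed by 1.31 ± 0.33 (adjusted p = 0.0094), or 0.76 with the set as a block and 0.87 as deposited, neither called. miR-466 changed by 1.24 ± 0.40 (adjusted p = 0.0388) and lost its call without treated array 1, 2, 3 or 4 or without control 1, 2 or 6, with values from 0.88 to 1.31. With the set as a block it was 1.30 (adjusted p = 0.144), so its size stayed there while its call was lost. As deposited it was smaller, at 0.83, and not called. With the set as a block limma called 0 gaps in the double knockout, with 12 at an unadjusted p under 0.05, and 5 probes, against 9 gaps and 14 probes without it. In place of 9 gap calls, 5 were made without treated array 1 or 2 and 3 without treated array 3. In place of 14 probe calls, 9 were made without treated array 2, 8 without treated array 5, 7 without control 3 and 5 without control 4.

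Changes of the gap recurred between genotypes. Of 54 pairs tested in all 4 genotypes, the change of the gap was above 0 in all 4 in 16 pairs and below 0 in all 4 in 9. It was called in all 4 genotypes for miR-29a, miR-29b-2 and miR-500. The genotypes had no control arrays in common. Across pairs, the r between the wild type and NOS2 knockout changes was 0.806 for the -a probes, 0.651 for the -p probes and 0.752 for the gap. Between wild type and the p53 knockout these values were 0.854, 0.724 and 0.787, and between both single knockouts 0.849, 0.681 and 0.747. With the double knockout they were lower, at 0.521, 0.226 and 0.354 against wild type. These are descriptions over 55 to 72 stems on shared array designs. Wild type and NOS2 knockout shared 13 gap calls in the same direction, wild type and p53 knockout 14, and no gap was called in opposite directions in any pair of genotypes.

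The interaction, the change of the gap in a knockout minus that in wild type, tested differences between genotypes. For the NOS2 knockout limma called 0 of 59 stems (0.0%), and 5 had an unadjusted p under 0.05. For the p53 knockout it called 3 of 55 (5.45%), in each of which the wild type change lay above that of the knockout. These were miR-532 at -1.43 ± 0.33 (adjusted p = 0.00719), miR-138-2 at -1.47 ± 0.41 (adjusted p = 0.0235) and miR-297b at -1.58 ± 0.46 (adjusted p = 0.0274). Each of these contrasts lay within 1 set, but the wild type and p53 knockout arrays were in different sets. Without control 5 of the p53 knockout the count was 1. For the double knockout it called 10 of 61 (16.4%), among them miR-138-2 at -1.88 ± 0.38 (adjusted p = 0.000849), miR-29c at -1.33 ± 0.39 (adjusted p = 0.0203) and miR-7-2 at 1.30 ± 0.44 (adjusted p = 0.0338). The count was 6 without wild type treated array 1, wild type control 5 or double knockout control 2, and it was 3 with the set as a block.

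Between controls, the gap of a knockout was also compared with that of wild type, a comparison added after the data were seen. For the NOS2 knockout it was called in 1 of 65 stems (1.54%), let-7b at -1.70. For the p53 knockout it was called in 9 of 59 (15.3%), from -1.82 for miR-139 to 2.03 for miR-32. For the double knockout it was called in 7 of 69 (10.1%), from -1.28 for miR-451 to 1.49 for miR-703. The controls of both single knockouts share no array set with the wild type controls, so that genotype and set cannot be told apart there. The median gap of an array over the 27 complete pairs was -0.48 ± 0.14 in controls and -0.02 ± 0.12 after treatment in wild type (SD, n = 5 each). In controls and treated arrays it was -0.64 ± 0.09 and -0.03 ± 0.28 in the NOS2 knockout, -0.58 ± 0.20 and -0.32 ± 0.13 in the p53 knockout, and -0.21 ± 0.11 and -0.26 ± 0.18 in the double knockout. The treated arrays lay above all controls in wild type and in the NOS2 knockout and overlapped them in the other 2 genotypes. These array medians were not tested.

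Stems that share a seed were compared as a description. Of the members, 18 stems shared 9 seeds in 12 combinations, and 2 combinations shared an identical mature strand. For miR-138-1 and miR-138-2, which share miR-138-5p, the deviations of the -a probes had an r of 0.111 and those of the -p probes 0.443. Their mean levels were 8.86 and 8.98 on the -a side and 9.93 and 9.15 on the -p side. For miR-7-1 and miR-7-2, which share miR-7a-5p, the -p probes had an r of 0.803 over 41 arrays, while the -a probes had one of 0.111 over 28 arrays and mean levels of 6.57 and 11.14. Over all 12 combinations the median r was 0.154 for -a and 0.142 for -p probes. A shared seed or strand between stems therefore went with like deviations in some pairs of probes and not in others.

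How often a probe was measured also varied between the groups. The -a probes of the members had a value in 93.8% to 98.5% of their cells by group and the -p probes in 86.8% to 98.3%. Under both endings the share was lowest in wild type controls and highest in double knockout controls. Whole arrays went the same way, with 310 to 387 values over all probes in wild type controls and 391 to 464 in double knockout controls. The order is thus not particular to the pairs, which were themselves chosen by such counts. A missing value counts as no measurement in all results above.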

How the data were processed

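Total RNA from mouse spleen was measured on 41 single-channel miRNA arrays. The deposited table gives 1 value per probe and array on a log2 scale, the base being inferred from the values. Neither the labels nor the file say by which steps the authors made these values, and no counts or detection p-values were used. Medians of the 227 probes present on all arrays ran from 9.87 to 10.6. The number of arrays limits the precision.

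The values were quantile normalized between arrays, with empty cells kept empty and ranked lowest. The gap of a stem was its -p minus its -a value on the same array. Probes and gaps were fitted by least squares to 8 group means, with limma's moderation of the variance (R 4.3.3, limma 3.58.1). A feature was tested where each group of the contrast had at least 3 values, and Benjamini-Hochberg adjustment ran over all features tested. Calls used an adjusted p of at most 0.05. The fit was tested on simulated data.

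The members and lists were chosen with earlier results of these data known. Named pairs were the 5 largest and 5 most negative gaps, up to 8 opposite and 6 same-direction pairs of the mean change, up to 4 gap changes in each genotype, preset miRNAs and the pairs at the limit of 20 arrays. Replicate numbers were checked: of 20 same-numbered control and treated pairs, 4 had an r above 0.1 between their deviations (range -0.408 to 0.302), so the numbers were not taken to pair samples. No columns were identical. Alternatives were the deposited values, median centring, a minimum of 2 values, a low value for empty cells, the set or the replicate number as a block, only the compared arrays, and 1 array left out. Comparisons within a set were added after the data were seen.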

Additional observations from a re-analysis of the deposited data

Results flagged for a closer look

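In 14 of 235 groups of gap values from the named pairs, 1 array lay far from the others of its group. Chance gives about 1 in 20 such groups. In the NOS2 knockout these were treated array 5 for miR-221 (-5.26), treated array 2 for let-7a-2 (-4.59), control 5 for miR-425 (5.60) and control 5 for miR-702 (-4.82). In the p53 knockout it was control 5 for miR-297b (2.34), miR-320 (0.17) and miR-7-2 (-0.82). In wild type they were treated array 2 for miR-123 (-5.19) and control 2 for miR-699 (0.83). In the double knockout they were control 5 for let-7a-2 (-4.44), treated array 3 for miR-138-2 (0.45), control 6 for miR-326 (0.99), treated array 6 for miR-672 (2.55) and control 4 for miR-699 (0.034).

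The change of the gap differed between genotypes by the interaction test in 13 cases. Knockout minus wild type, it was -1.47 for miR-138-2, -1.58 for miR-297b and -1.43 for miR-532 in the p53 knockout. In the double knockout it was below 0 for miR-138-1 (-1.32), miR-138-2 (-1.88), miR-29c (-1.33), miR-532 (-0.98), miR-699 (-1.24) and miR-703 (-1.36). It was above 0 there for miR-123 (1.24), miR-22 (1.36), miR-7-2 (1.30) and miR-702 (2.20). The double knockout's treatment groups and the array sets cannot be told apart.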

How the results depend on the processing

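The wild type and mean counts of called probes and gaps stayed within 1.5 times their value under every alternative run. Counts of the double knockout and the NOS2 knockout moved further under some settings. In the double knockout 14 probe calls became 5 with the set as a block. The 9 gap calls there became 5 as deposited, 0 with the set as a block and 0 on the compared arrays alone. Unadjusted p-values under 0.05 numbered 12 and 17 in these cases of 0. Within set 1 the double knockout had 1 treated array and within set 2 it had 1 control, so counts within its sets are left out. In the NOS2 knockout 39 probe calls became 22 on the compared arrays alone, and 24 gap calls became 11 there and 13 within set 2. The count of 0 gap interactions of the NOS2 knockout with wild type was 1 as deposited, 1 with the replicate block and 1 on the compared arrays alone. The count of 3 for the p53 knockout was 1 with the replicate block and 0 with empty cells at a low value (7 at an unadjusted p under 0.05), and the count of 10 for the double knockout was 3 with the set as a block. The replicate numbers were not taken to pair the samples. With 1 array left out, the probe calls ran from 40 to 48 in wild type, 28 to 51 in the NOS2 knockout, 26 to 46 in the p53 knockout, 5 to 20 in the double knockout and 68 to 77 for the mean. The gap calls ran from 18 to 24, 15 to 22, 12 to 25, 3 to 13 and 30 to 36 in the same order. The interactions ran from 0 to 0 (3 to 7 at an unadjusted p under 0.05), 1 to 4 and 6 to 13, and the median level gap from -0.67 to -0.61. The median level gap was -0.63 as deposited, -0.67 with low values for empty cells and -0.40 over the pairs complete on all arrays. Of 207 named values that passed, 6 reversed under some setting. The -a change of miR-26b turned with median centring to 0.17 in wild type, 0.14 in the p53 knockout and 0.00101 in the mean. In the double knockout, the gap of miR-326 turned to -0.28 with the set as a block and within set 2, both resting on 1 control array. Within set 1 the gaps of miR-29b-2 and miR-500 turned to -0.12 and -0.36, values that rest on 1 treated array. The cause was not tested. Over the other settings the call was kept in 1212 of 1400 cases, and with 1 array left out in 3753 of 3964. Dim -p probes, often empty, limit the tests.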
